A study of Rattus norvegicus with 6 samples.

Results

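Expression of 10 integrin subunit genes, taken by name, was followed in primary rat oligodendrocyte progenitor cells (OPCs) exposed to fibrinogen: Itgav, Itgb3, Itgb5, Itgb8, Itgb1, Itga5, Itga6, Itga7, Itgam and Itgb2. A probe set paired with that symbol alone was measured for 8 of the 10, out of 13949 genes measured in that way, and each of the 8 had 1 probe set, so splice forms of a subunit were not told apart. Itgav and Itgb3, the genes for the subunits of αvβ3, are not analysed here. The series compared 3 control samples of unstimulated OPCs with 3 samples stimulated with fibrinogen, at 12 h in both groups, each on 1 Affymetrix array. In both groups the cells were isolated from rat pups at postnatal days 1 to 2 and recovered for 2 days in medium with N2, B27, NT3 and PDGF, the growth factor that keeps OPCs dividing. The rat strain and the fibrinogen dose are not given in the sources used here, and the labels do not state that each replicate was its own culture; a p-value here weighs only the spread among these 6 samples, part of which may be technical.

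Integrins are receptors of the cell surface built from an α and a β subunit, which bind matrix proteins outside the cell and couple them to actin and to kinases inside it. Fibrinogen, the clotting protein that enters brain tissue where vessels leak, carries the RGD sequence read by αv integrins and by α5β1, and a separate site read by αMβ2, the Mac-1 receptor of microglia and other myeloid cells. In cells of the oligodendrocyte lineage αv pairs with several β subunits, and α6β1 is a receptor for laminin with known parts in survival and myelination.

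Fibrinogen-stimulated OPCs had more mRNA of 2 integrin subunits, Itga6 and Itgb5, and the other 6 measured members did not pass the test in either direction. Itga6 was 1.81-fold and Itgb5 1.33-fold the control level. The Itgb5 call was at the threshold (adjusted p = 0.0490, limma) and was lost in 8 of 13 alternative fits, while Itga6 kept its call in all 13. These 2 of 8 members stand beside 3.1% of all 13949 genes called in limma at a Benjamini-Hochberg adjusted p under 0.05 (1.81% higher and 1.29% lower). The median log2 change of the 8 members was 0.0033, and that of all genes was -0.0033. The groups did not overlap for 3 of the 8 members, Itga6, Itgb5 and Itgb8, and for 21.3% of all genes. RNA came from whole cultures, so more cells of a type and more RNA per cell cannot be told apart.

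Sequence from before the transcription start is shown for Itgb5, the β subunit called higher at the threshold. It is also shown for 2 that did not pass, Itgb8 and Itgb1, because β5, β8 and β1 can all pair with αv. RefSeq promoter windows on build GRCr8 were matched for 6 of the 10 genes: Itga5, Itgam, Itgav, Itgb1, Itgb5 and Itgb8. Each stretch is the 250 bases before the start, written 5′ to 3′ on the strand of the gene. Capitals mark GGGCGG (the GC box, bound by Sp factors), GGCGCC (a motif that Smad proteins of the BMP pathway can bind) and TATAAA, searched on both strands; no 2 matches overlap in these stretches. The stretches are chr11:80449374-80449623 on the minus strand for Itgb5, chr6:146351246-146351495 on the minus strand for Itgb8 and chr19:73602027-73602276 on the plus strand for Itgb1.
Itgb5: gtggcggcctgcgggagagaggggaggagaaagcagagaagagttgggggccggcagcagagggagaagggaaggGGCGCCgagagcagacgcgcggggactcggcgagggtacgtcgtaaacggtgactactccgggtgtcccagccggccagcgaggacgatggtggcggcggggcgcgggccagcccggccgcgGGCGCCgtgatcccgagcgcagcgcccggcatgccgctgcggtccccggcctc
Itgb8: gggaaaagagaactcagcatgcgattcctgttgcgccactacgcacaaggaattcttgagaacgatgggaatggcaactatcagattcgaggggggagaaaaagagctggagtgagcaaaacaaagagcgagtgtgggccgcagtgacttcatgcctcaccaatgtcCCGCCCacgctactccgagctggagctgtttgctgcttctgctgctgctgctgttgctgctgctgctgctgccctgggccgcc
Itgb1: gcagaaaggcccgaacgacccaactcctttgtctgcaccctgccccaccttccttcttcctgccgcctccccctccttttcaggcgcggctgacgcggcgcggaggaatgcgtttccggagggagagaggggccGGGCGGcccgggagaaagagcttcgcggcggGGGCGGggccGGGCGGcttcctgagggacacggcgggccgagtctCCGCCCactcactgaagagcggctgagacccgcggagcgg
The Itgb5 stretch held GGCGCC at 2 places and no GGGCGG, Itgb8 held 1 GGGCGG and Itgb1 4, and neither of the latter held GGCGCC. Among 33469 promoter stretches of that length, 8.69% held GGCGCC, 30.5% GGGCGG and 12.9% TATAAA, which none of the 3 contained. The Itgb5 stretch was 74.4% G and C, Itgb1 71.2% and Itgb8 56.4%, against a median of 51.2% over all stretches. The shares were not taken over stretches of like G and C content, and no window was matched for Itga6. A match is a run of letters, and binding was not measured.

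Itga6 encodes the α6 subunit, which joins β1 or β4 to make laminin receptors. Its log2 level was 6.12, 6.08 and 6.07 in controls and 6.89, 6.93 and 7.02 with fibrinogen. Every fibrinogen array lay above every control array, and the gap between the groups exceeded the spread within either. The means were 6.09 ± 0.03 and 6.95 ± 0.07 (SD, n = 3 each), a log2 change of 0.86 ± 0.07 (SE, adjusted p = 0.000743, limma) with a 95% interval for the ratio of 1.62 to 2.02. By p-value the change ranked 15 among all 13949 genes, and by size 34 among rises. It passed without each array in turn, with a log2 change of 0.82 to 0.89 and adjusted p-values of 0.00319 to 0.00889 (limma).

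**Figure D1:**
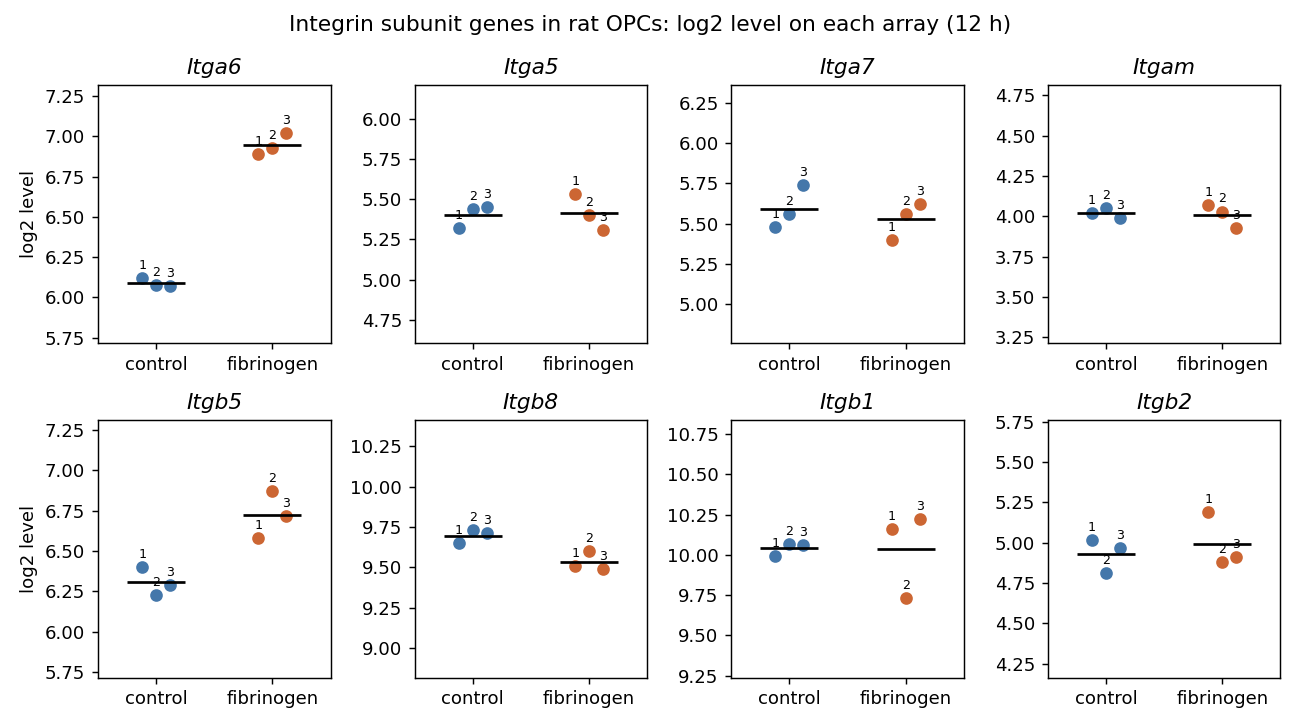
Log2 level of the 8 measured integrin genes on each array, with a panel per gene, groups on the x axis, 1 point per array numbered by replicate, and a line at each group mean; every panel spans the same range of log2 units. Itga6 rises from 6.09 to 6.95 and Itgb5 from 6.31 to 6.72 with no overlap, and fibrinogen 2 lies apart for Itgb1 at 9.73.

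Itgb5 encodes the β5 subunit, which pairs with αv alone to form a vitronectin receptor. Its log2 level was 6.40, 6.23 and 6.29 in controls and 6.58, 6.87 and 6.72 with fibrinogen. The fibrinogen arrays were all higher, although the lowest of them was close to the highest control. The log2 change was 0.42 ± 0.09 (SE), from 6.31 ± 0.09 to 6.72 ± 0.15 (SD, n = 3 each), with an interval for the ratio of 1.16 to 1.54. This call was at the threshold (adjusted p = 0.0490, limma). It ended after median centring of the arrays (adjusted p = 0.0563), after quantile normalization (0.0630), and without control 1, 2 or 3 or fibrinogen 2 or 3 (0.0996, 0.196, 0.164, 0.0766 and 0.119, limma), while the log2 change stayed between 0.34 and 0.49.

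Itgb8 encodes the β8 subunit, whose product with αv binds latent TGF-beta and helps to activate it. Its log2 level was 9.65, 9.73 and 9.71 in controls and 9.51, 9.60 and 9.49 with fibrinogen. Each fibrinogen array was below each control array, by a small margin. The log2 difference was -0.16 ± 0.07 (SE), which did not pass (unadjusted p = 0.0434, adjusted p = 0.298, limma), and the interval for the ratio ran from 0.801 to 0.996. Latent TGF-beta genes measured beside it did not pass either, with 0 of 8 called higher or lower in limma (unadjusted p under 0.05: 1 higher, 0 lower, beside 15.6% of all genes) and a median log2 change of 0.02. Of these, Ltbp3, which anchors latent TGF-beta in the matrix, had a difference of 0.20 ± 0.07 (SE) and the ligand gene Tgfb2 one of -0.08 ± 0.07.

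Itgb1 encodes β1, the shared partner of α5, α6, α7, αv and many other α subunits. Its log2 level was 9.99, 10.07 and 10.06 in controls and 10.16, 9.73 and 10.22 with fibrinogen. Fibrinogen 1 and 3 lay above the controls and fibrinogen 2 below them. The log2 difference was -0.0033 ± 0.12 (SE, adjusted p = 0.992, limma), and the interval allowed a ratio of 0.821 to 1.21. Without fibrinogen 2 the difference was 0.15 (adjusted p = 0.282, limma), and across the 6 fits without 1 array it ran from -0.10 to 0.15. Fibrinogen 2 was the array with the widest spread of all genes about its group mean, an SD of 0.146 against 0.0862 to 0.114 on the other 5; the part of this array in the Itgb1 value is the difference just given.

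Itga5 and Itga7 encode the α5 subunit of the fibronectin receptor and the laminin-binding α7 subunit, both partners of β1. The Itga5 log2 level was 5.32, 5.44 and 5.45 in controls and 5.53, 5.40 and 5.31 with fibrinogen, and that of Itga7 5.48, 5.56 and 5.74 against 5.40, 5.56 and 5.62. Both sets of arrays overlapped. The differences were 0.01 ± 0.08 and -0.07 ± 0.09 (SE, adjusted p = 0.974 and 0.805, limma), with intervals for the ratio of 0.885 to 1.15 for Itga5 and 0.824 to 1.11 for Itga7. Both genes were near background: 956 olfactory and vomeronasal receptor genes, which served as a measure of background, had a 95th percentile of log2 level of 5.51, above the Itga5 mean of 5.41 and just below the Itga7 mean of 5.56. A change of either gene could be missed at such levels.

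Itgam and Itgb2 encode αM and β2, the subunits of Mac-1, and β2 is restricted to leukocytes. The Itgam log2 level was 4.02, 4.05 and 3.99 in controls and 4.07, 4.03 and 3.93 with fibrinogen, next to a median of 4.03 for the olfactory and vomeronasal receptor genes. The Itgb2 log2 level was 5.02, 4.81 and 4.97 against 5.19, 4.88 and 4.91. Both genes lay under the 95th percentile of those receptor genes in both groups, so neither was measured above background. The log2 differences were -0.01 ± 0.07 and 0.06 ± 0.10 (SE, adjusted p = 0.970 and 0.843, limma). Of 19 measured microglia and macrophage markers, 7 lay above that percentile, and 0 passed in limma (unadjusted p under 0.05: 0 higher, 1 lower, beside 15.6% of all genes). The mean log2 level of the 19 was 5.30 to 5.36 in controls and 5.26 to 5.36 with fibrinogen. Ptprc, the common leukocyte antigen, had a mean of 3.79 in controls and 3.73 with fibrinogen, the calcium-binding Aif1 4.67 and 4.81, the receptor gene Csf1r 5.37 and 5.25, and the chemokine receptor gene Cx3cr1 5.71 and 5.72. The highest levels in that list were those of Cd68 (7.06 and 6.95) and Tmem119 (6.46 and 6.33), named after their values were seen. The largest differences in that list were those of Ly86 (-0.24), Laptm5 (0.18) and Cd53 (-0.18), none past the test.

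**Figure D2:**
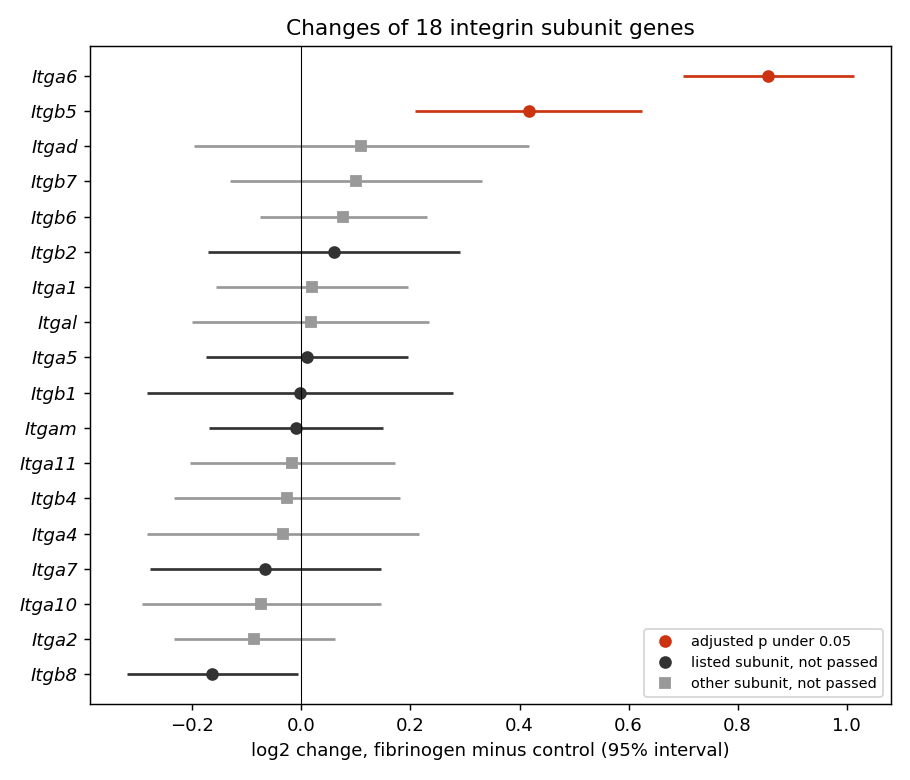
Log2 change (fibrinogen minus control, x axis) of the 18 measured integrin subunit genes, with limma's 95% interval for each; circles are the 8 members, squares 10 further subunits, and red marks an adjusted p under 0.05. Itga6 and Itgb5 stand to the right of 0, and the interval of Itgb8 ends just left of it.

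Of 16 further integrin subunit genes listed from general knowledge, 10 were measured, and 0 passed in limma (0 at an unadjusted p under 0.05, beside 15.6% of all genes). Their log2 changes ran from -0.09 to 0.11 with a median of 0, and 3 of the 10 lay above the receptor percentile. The largest differences were those of Itgad, an α subunit of leukocytes (0.11 ± 0.13, SE), and Itgb7, a β subunit of lymphocytes (0.10 ± 0.10). Itgb4, the other partner of α6, had a log2 level of 5.57, 5.75 and 5.86 in controls and 5.62, 5.70 and 5.78 with fibrinogen, and a difference of -0.03 ± 0.09 that did not pass (adjusted p = 0.933, limma). In the whole family of 18 measured subunits, 2 rose (Itga6, and Itgb5 at the threshold) and 0 fell in limma, beside 3.1% of all genes called. Itgb4 was named after its values were seen, because it is the remaining partner of α6.

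Inside the cell, some genes for adaptors and kinases of integrin signaling were called higher and some lower. Of the 31 measured genes, 4 rose and 3 fell in limma and 24 missed the threshold, with a median log2 change of 0.0067. The groups did not overlap for 16 of the 31. Over all 13949 genes, 3.1% were called in limma and 21.3% did not overlap. Tns1, a tensin that ties β tails to actin, had levels of 6.77, 6.74 and 6.66 in controls and 7.35, 7.46 and 7.29 with fibrinogen, a rise of 0.64 ± 0.08 (SE, adjusted p = 0.00347, limma). Nedd9, a scaffold of the Cas family, rose by 0.56 ± 0.08 (adjusted p = 0.00782, limma), and the actin crosslinker gene Actn1 and the parvin gene Parvb rose by 0.36 ± 0.07 and 0.32 ± 0.07. The genes that fell were Kank1, which binds talin, from 9.09 to 8.49, the PINCH family gene Lims2, from 7.40 to 6.81, and Fyn, a Src family kinase that acts in oligodendrocyte differentiation, from 11.11 to 10.68. Kank1 had a log2 change of -0.60 ± 0.07, Lims2 of -0.59 ± 0.11 and Fyn of -0.42 ± 0.07 (SE). Actn1, Parvb and Fyn were named after their values were seen, to complete the count.

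Tln1, Fermt2, Ilk and Ptk2 were among the 24 genes of the same list that missed the threshold. The groups did not overlap for Ilk and Ptk2. The talin gene Tln1, which switches integrins on, had a log2 difference of 0.01 ± 0.08 (SE), the kindlin gene Fermt2 -0.0033 ± 0.07, the kinase genes Ilk and Ptk2 0.14 ± 0.07 and -0.13 ± 0.07, all 4 named after their values were seen (adjusted p of 0.972, 0.990, 0.382 and 0.430, limma). Tns1, Nedd9 and Kank1 passed without each array in turn. In those 6 fits, 2 to 3 genes of the list rose and 1 to 3 fell. Parvb passed in none of them (adjusted p of 0.0605 to 0.196, limma), and its call also ended after median centring (0.0528) and quantile normalization (0.0579). Among those 6 fits Actn1 passed only without fibrinogen 2 (0.0437; 0.0703 to 0.137 without each other array), Fyn was lost without control 1, 2 or 3 or fibrinogen 1 (0.0544, 0.0900, 0.0810 and 0.0562), and Lims2 without the same 4 arrays (0.105, 0.129, 0.102 and 0.0938, limma).

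**Figure D3:**
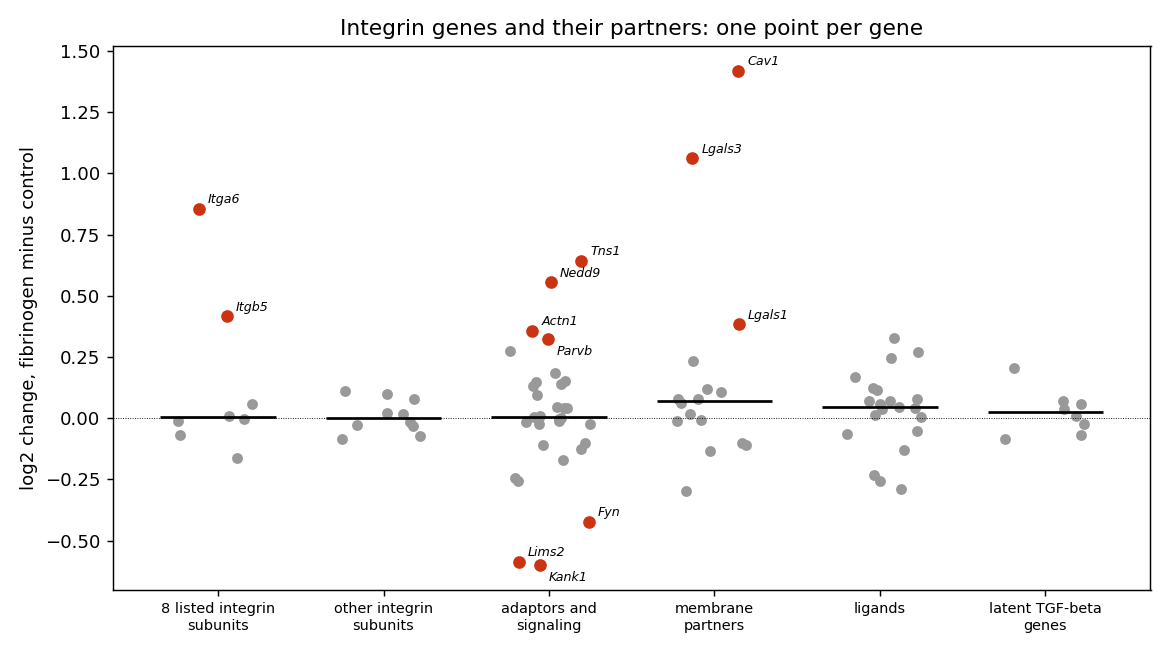
Log2 change (fibrinogen minus control, y axis) of each measured gene in 6 groups of integrin genes, 1 point per gene with a line at the group median; red points passed in limma (adjusted p under 0.05) and carry their symbol. Called genes lie above 0 among the subunits and the membrane partners, on both sides of 0 among the adaptors, and are absent among further subunits, ligands and latent TGF-beta genes.

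Among 16 genes for proteins that act beside integrins at the membrane, galectins included, 3 rose and 0 fell in limma, with a median log2 change of 0.07. The other 13, the tetraspanin and syndecan genes among them, did not pass. Of all genes, 1.81% rose and 1.29% fell, with a median log2 change of -0.0033. Cav1, the coat protein of caveolae, was at 8.85, 8.92 and 8.98 in controls and 10.35, 10.26 and 10.40 with fibrinogen, a 2.68-fold rise (log2 change 1.42 ± 0.07, SE, adjusted p = 0.000134). Lgals3, a galectin that crosslinks surface glycoproteins, was at 7.09, 7.19 and 7.23 against 8.06, 8.53 and 8.11, a 2.09-fold rise. Lgals1, a second galectin, rose 1.30-fold, a call that held without fibrinogen 2 and was lost without any other array (adjusted p of 0.0522 to 0.118, limma). Cav1 and Lgals3 rose in every fit without 1 array.

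Genes for integrin ligands did not pass: 0 of 21 measured in limma (unadjusted p under 0.05: 3 higher, 2 lower), with a median log2 change of 0.05. The share of all genes at an unadjusted p under 0.05 was 15.6% (limma). Ccn1, a matricellular ligand of αv and α6 integrins, had the largest difference, 0.33 ± 0.10 (SE, adjusted p = 0.149), and Lamc1, a laminin chain and so part of the ligand of α6β1, had -0.29 ± 0.11 (adjusted p = 0.259, limma). Without fibrinogen 2 the fall of Lamc1 passed, at -0.42 (adjusted p = 0.0392, limma). Fn1, the fibronectin gene and the ligand of α5β1, was at 6.39, 6.32 and 6.32 in controls and 6.58, 6.63 and 6.63 with fibrinogen, 3 arrays above 3, but its difference of 0.27 ± 0.07 did not pass (adjusted p = 0.0732, limma); it passed with dim genes left out (0.0375) and with array weights (0.0394). Fn1 was named after its values were seen.

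Over the 6 arrays, the genes most like Itga6, by the root mean square difference of levels after each gene's mean was subtracted, were Ntm, Cdh6 and Socs2, at 0.06, 0.07 and 0.07 log2 units among 13948 genes compared. Ntm encodes an adhesion molecule of the immunoglobulin family, Cdh6 a cadherin and Socs2 a feedback inhibitor of cytokine receptors, and their log2 changes were 0.84, 0.79 and 0.85. The genes most like Itgb5 were Rxra, a nuclear receptor gene, the xylosyltransferase gene Xylt1 and the transcription factor gene Nfia, at 0.03, 0.04 and 0.04 log2 units. Their log2 changes were 0.39, 0.41 and 0.44, and that of Nfia did not pass (adjusted p = 0.0528, limma). The arrays fall into 2 groups, so that likeness is mostly a like difference between groups. Rxra passed in no fit without 1 array (adjusted p of 0.0528 to 0.166), and neither did Xylt1 (0.0630 to 0.166, limma).

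Markers of the culture moved in the same arrays. All 13 measured OPC markers lay above the receptor percentile, with a mean log2 level of 9.99 to 10.02 on control and 9.88 to 9.94 on fibrinogen arrays. Of these, 4 fell (Pdgfra, Gpr17, Neu4 and Cspg4) and 1, Xylt1, rose, beside 3.1% of all genes called in limma. The highest change in the list was that of C1ql1, 0.52 ± 0.14 (SE), without overlap between groups. It did not pass (adjusted p = 0.0923, limma) but passed with array weights (0.0456). C1ql1 was named after its values were seen. Pdgfra, the receptor that defines OPCs, went from 11.50 to 11.10, Gpr17 changed by -0.66 ± 0.10 (SE) and Neu4 by -0.65 ± 0.09, while the lineage factor gene Sox10 had a difference of -0.05 ± 0.08 that did not pass. Of 9 measured astrocyte markers, of which 8 lay above that percentile, 2 rose, Gfap by 1.24 ± 0.16 and the glutamate transporter gene Slc1a2 by 0.65 ± 0.07 (SE). At an unadjusted p under 0.05, 6 were higher and 0 lower, beside 15.6% of all genes (limma). The groups did not overlap for 6 of the 9, and for 21.3% of all genes. Aqp4 and Gja1, named after their values were seen, had differences of 0.01 ± 0.07 and -0.04 ± 0.08 (SE) and did not pass. The mean log2 level of that list was 7.64 to 7.73 on control and 7.97 to 8.07 on fibrinogen arrays, and its part in the rises of Itga6 and Itgb5 was not tested. In the fits without 1 array, 1 to 3 OPC markers fell and 0 to 1 rose. The 1 that rose was C1ql1, without fibrinogen 2 (log2 change 0.345, adjusted p = 0.0454, limma). Xylt1 passed in none of these fits (0.0630 to 0.166, limma). Pdgfra passed only without fibrinogen 3 (adjusted p = 0.0377, and 0.0628 to 0.159 otherwise), Cspg4 in none (0.0670 to 0.179), and Gpr17 not without control 2 or 3 (0.0690 and 0.0713, limma). Of the astrocyte markers 2 to 3 rose in those fits.

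Markers of other cell types that such a culture could hold were measured in the same way. For comparison, 3.1% of all genes were called and 15.6% had an unadjusted p under 0.05 (limma). Of 8 endothelial genes 3 lay above the receptor percentile and 0 passed (0 at an unadjusted p under 0.05), with a mean log2 level of 5.04 to 5.11 in controls and 5.08 to 5.12 with fibrinogen; Tek and Cdh5 had the largest differences, 0.13 and 0.07. For pericytes and fibroblasts 5 of 9 genes lay above it and 0 passed in limma (unadjusted p under 0.05: 1 higher, 1 lower), with a mean of 5.75 to 5.80 against 5.69 to 5.80, and Tagln and Kcnj8 had differences of 0.26 and -0.21. Of 10 neuron genes 7 lay above it, 0 rose and 1 fell, Gad2, from 5.35 to 4.77 and so below the percentile in both groups, a call lost without control 3 (adjusted p = 0.0514, limma). At an unadjusted p under 0.05, 2 neuron genes were higher and 1 lower (limma), and the log2 changes ran from -0.58 to 0.38. The mean of the neuron genes was 6.73 to 6.77 in controls and 6.71 to 6.94 with fibrinogen.

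**Figure D4:**
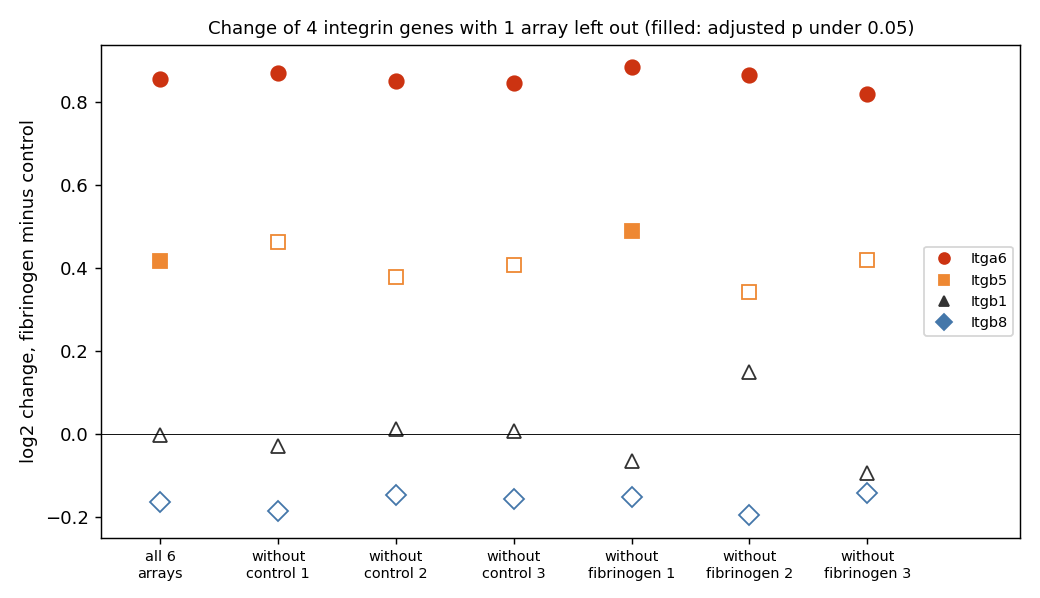
Log2 change (fibrinogen minus control, y axis) of Itga6, Itgb5, Itgb1 and Itgb8 with all 6 arrays and with each array left out in turn (x axis); filled symbols have an adjusted p under 0.05 in limma. Itga6 stays filled between 0.82 and 0.89, Itgb5 is open in 5 of the 6 fits, and Itgb1 moves to 0.15 without fibrinogen 2.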

How the data were processed

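Per the labels' protocols, RNeasy-purified, DNase-treated RNA went through NuGEN's Ovation Pico WTA V2 amplification and Encore biotin labelling. The authors deposited 1 log2 level per probe set and array; RMA and limma are named in the submitters' processing notes, without versions or roles, so RMA normalization and the log2 scale are inferred from the deposited values (2 decimals, near-equal distributions). RMA can compress differences of dim genes, and scanner files were not used here. No genome build of the arrays is given in the sources used here.

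The table holds 26312 probe sets, 25106 with values, of which 14700 carry 1 gene symbol in the platform table, 275 carry several and 10131 carry none. The single-symbol probe set with the highest mean stood for each gene (13949 genes, 480 with several). The symbols of all 8 measured members matched RefSeq (GRCr8) through Entrez IDs. Groups came from sample titles, and no pair of arrays shared over 3.63% of values. The labels name no batch.

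Fibrinogen minus control was fitted with limma 3.58.1 in R 4.3.3 (lmFit, eBayes, two-sided, no covariates), with Benjamini-Hochberg adjustment over all genes and a threshold of 0.05; SE and 95% intervals are from that fit, SD over 3 arrays, and the number of arrays limits the precision. An exact permutation test of 3 against 3 cannot go below 0.1, so none was run. The code was tested on simulated data. The members, the gene lists, the rule for named genes (all members, up to 4 called genes per list or else the 2 largest differences, the 3 genes most like each called member, and Pdgfra, Sox10, Cx3cr1, Csf1r, Aif1 and Ptprc) and the alternatives were chosen with earlier results of these data known. Alternatives were median centring, quantile normalization, a filter on dim genes, the mean of probe sets, eBayes with trend and robust, array weights, a replicate block, and each array left out.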

Additional observations from a re-analysis of the deposited data

How the results depend on the processing

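Itga6 kept its direction and its call in all 13 alternatives, and Itgb5 kept its direction but lost its call in 8 of them, so the number of members higher was 1 after median centring, 1 after quantile normalization, 1 with the replicate number as a block, and 1 to 2 in the fits without 1 array. No member was called lower in any of these fits. With the replicate block the adjusted p was 0.00407 for Itga6 and 0.0951 for Itgb5 (limma), with 195 genes higher and 120 lower; same-numbered arrays deviated together only weakly (correlations across genes of 0.03, 0.02 and 0.01), although each array correlated best with its own number. Over all genes, 252 were higher and 180 lower; array weights gave 383 and 276, and the fits without 1 array 96 to 263 and 55 to 173. Of the other members' signs, Itgb1 was 0.015 after quantile normalization and 0.094 with array weights, and Itga5 was -0.0033 after median centring and -0.013 with array weights. Without 1 array the changes ran from -0.10 to 0.15 for Itgb1, -0.048 to 0.062 for Itga5, -0.12 to 0.0067 for Itga7, -0.04 to 0.03 for Itgam and -0.038 to 0.12 for Itgb2. The cause was not tested. Itga5, Itga7, Itgam and Itgb2 fell under the filter at the 30th percentile and have no value there. Signal over background limits what can be said of Itga5, Itga7, Itgam and Itgb2.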
